A study of Mus with 4 samples.

Results

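Exonic circular RNAs (circRNAs) of short genomic span were examined in mouse ocular tissue. A circRNA was taken when every deposited table listing it gave its class as exon and when its end minus its start plus 1 was below 500 bases. The rule found 905 circRNAs among the 44073 listed in the 4 libraries, and 37195 other exonic circRNAs had a longer span. The rule used class and coordinates, and no read count. In 1 further circRNA under 500 bases, with 10 reads in all, the class differed between tables, and it was left out. How many exons each circle holds was not analysed here.

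All tissue came from C57BL/6J pups kept in 75% oxygen between postnatal days 7 (P7) and 12 (P12). The 4 groups were wild type at P12, wild type at P13, VLDLR deletion at P12 and VLDLR deletion at P13, with 1 library each. VLDLR is the very-low-density lipoprotein receptor. P12 tissue was taken at the end of the oxygen exposure and P13 tissue after 1 day in room air, so that age and return to air cannot be told apart. Ribosomal and linear RNA had been depleted before fragmentation and paired-end Illumina sequencing, per the labels' protocols. The number of animals in a library, and the cells or promoter concerned in the deletion, are not given in the labels.

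A circRNA forms when the spliceosome joins the end of an exon to the start of the same exon or of an earlier one. The closed ring has no free ends and resists the enzymes that degrade linear RNA. A read across the back-spliced junction comes from such a ring, whereas a non-junction read at the same splice positions can come from the linear transcript. Rings of a single exon need an exon long enough to close on itself, and many abundant rings hold the second exon of their gene together with later ones. CircRNAs are abundant in neural tissues, where many come from synaptic genes.

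Where 4 values follow each other without further labels, the 2 wild-type libraries come first and the 2 deletion libraries second, with P12 before P13 in each genotype. The libraries held 662811, 759063, 299723 and 341873 junction reads. Each library was read in 1 sequencing run, and no run held libraries of both genotypes. For this reason genotype and run cannot be told apart. Whether the 2 libraries of a genotype came from the same run is not given here. No junction reads of Vldlr were listed, and the targeted gene gave no check of the labels. Photoreceptor hosts were well represented, with circRNAs from 32 of 47 genes on the list, against 20 of 36 lens genes and 14 of 27 genes of pigment epithelium and melanocytes. In these bulk libraries fewer cells of a type cannot be told apart from less RNA per cell.

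The short circles were a small part of each library. The libraries listed 608, 588, 471 and 446 of them. These held 17345, 17566, 9863 and 9389 junction reads. As a share of all junction reads this was 2.62% (exact binomial 95% interval 2.58 to 2.66) for wild type at P12 and 2.31% (2.28 to 2.35) at P13. For the deletion it was 3.29% (3.23 to 3.36) at P12 and 2.75% (2.69 to 2.80) at P13. The intervals cover counting error only. Both deletion libraries lay above both wild-type libraries, and both P13 libraries lay below the P12 library of their genotype. An exact two-sided permutation test of genotype gave p = 0.33, the smallest that 2 against 2 libraries allow.

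The order of the genotypes rested on 2 circles. Without the circles of Bbs9 and Med13l described below, a setting chosen after the data were seen, the shares were 2.36%, 2.11%, 2.45% and 2.12%, and the genotypes overlapped. The difference between the genotype means went from 0.553 to 0.0473 percentage points. Counted as circRNAs rather than reads, the short circles made up 2.13%, 1.88%, 2.61% and 2.22% of those listed. At an equal depth of 299723 reads, the expected shares were 2.18%, 1.93%, 2.61% and 2.24%, and both deletion libraries again lay above both wild-type libraries.

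Reads were concentrated in few members. The 905 circles held 54163 reads in all, and the 94 with at least 100 reads held 76.9% of them. The 2 most abundant held 14.6%. At the other end, 221 circles had 2 or 3 reads over the 4 libraries. The 10 most abundant circles of a library held 30.2% and 31.5% of its short-circle reads for wild type, and 42.3% and 40.9% for the deletion.

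The circle of Bbs9, a subunit of the BBSome that carries cargo in cilia, was the most abundant. It spans 416 bases at chromosome 9:22887581-22887996 and had 1271, 1198, 1743 and 1480 reads. Both deletion libraries were higher in raw reads although they held far fewer junction reads in all. The circle of Med13l, a subunit of the Mediator kinase module, came next. It spans 238 bases at chromosome 5:118593333-118593570 and had 403, 347, 782 and 657 reads. By mean share of junction reads over the 4 libraries, the circles that followed came from Farsa, Adamts3, Eif3c, Chsy1, Galnt7, Ttll3, Lrp6 and Rab3gap2.

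Farsa, which encodes a subunit of phenylalanyl-tRNA synthetase, gave a circle of 495 bases with 520, 618, 344 and 290 reads. Adamts3, a protease that processes procollagen, gave a circle of 407 bases with 449, 645, 226 and 272 reads. The circle of Eif3c, a translation initiation factor subunit, spans 364 bases and had 430, 527, 200 and 171 reads. None of these 3 passed the genotype test described below, with adjusted p of 0.252 for Farsa, 0.935 for Adamts3 and 0.516 for Eif3c (edgeR's quasi-likelihood test). Chsy1 encodes a chondroitin synthase, Ttll3 a tubulin glycylase and Lrp6 a Wnt co-receptor. The circle of Lrp6 had 388, 399, 90 and 183 reads and did not pass, with an adjusted p of 0.286.

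Detection was shared among libraries much as for longer circles. Of the 905 circles, 265 (29.3%) were listed in all 4 libraries and held 90.6% of the reads, and 352 (38.9%) were listed in 1 library. Among longer exonic circRNAs these shares were 26.4% and 40.4%. In both wild-type libraries and no deletion library 70 circles were listed, and in both deletion libraries and no wild-type library 21. The shares over all circRNAs are not given here, so that these counts do not set the short circles apart. The most abundant of the 70 was a circle of Tnrc18 with 20 and 7 reads. The most abundant of the 21 was a circle of Snx5, a sorting nexin, with 5 and 12 reads. Counts of this size do not show absence from the other genotype, since tables list a circle only from 2 reads and the wild-type libraries were deeper.

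A listed short circle had a median of 7, 6, 6 and 6 reads, against 6, 6, 5 and 5 for longer exonic circles. The mean was 28.5, 29.9, 20.9 and 21.1 reads against 23.6, 24.8, 16.6 and 17.1. The short circles had the higher mean in 4 of 4 libraries, with an exact sign-flip p of 0.13, the smallest that 4 libraries allow. The circles just above the limit had higher means still, 51.4, 52.4, 26.2 and 25.3 reads at 500 to under 600 bases and 39.5, 39.4, 22.0 and 23.0 reads at 600 to under 1000 bases. Circles of 1000 bases or more had 22.9, 24.2, 16.4 and 16.8 reads.

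**Figure D1:**
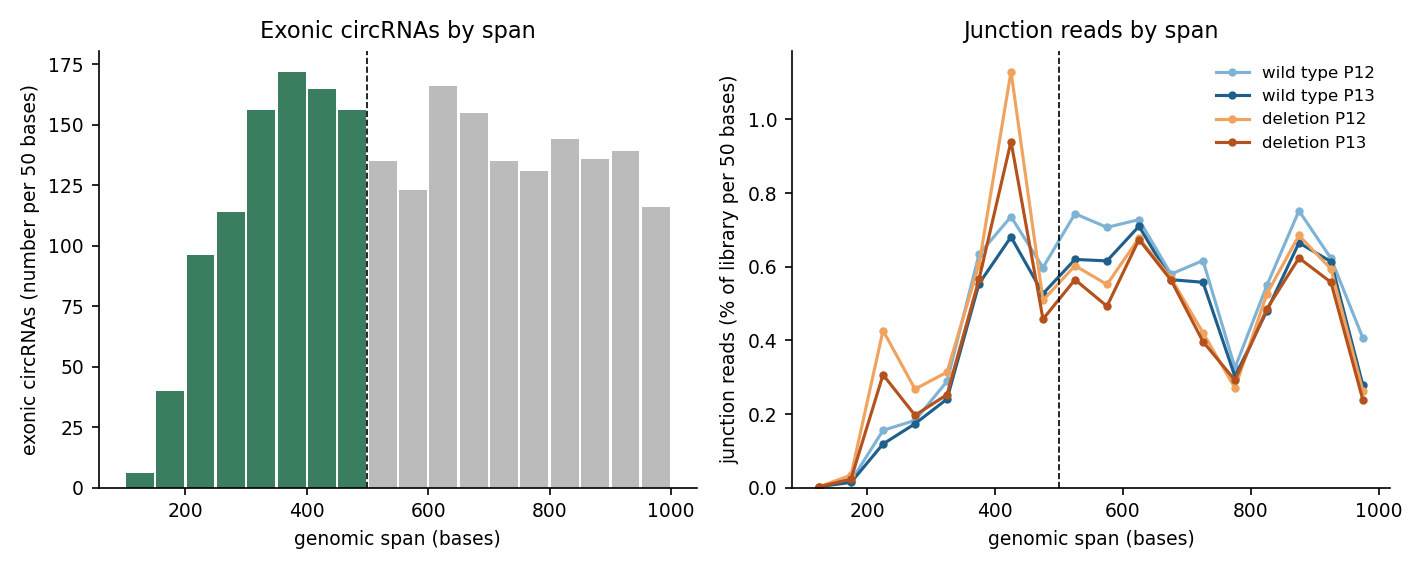
The left panel counts exonic circRNAs per 50 bases of genomic span, with those under 500 bases in green and the dashed line at 500. The right panel gives the percentage of each library's junction reads in each 50-base bin, and the deletion libraries stand above wild type in the bins that hold the circles of Med13l (238 bases) and Bbs9 (416 bases).

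Spans ran from 137 to 499 bases with a median of 362 (quartiles 289 and 429), and 46 circles were under 200 bases. The longer exonic circles had a median span of 10759 bases. The number per 50 bases rose with span up to 400 bases and did not drop sharply at the limit of 500 bases. Just inside the limit lay circles of Emg1 (499 bases, with 38, 22, 13 and 28 reads), Chsy1 (496 bases) and Farsa (495 bases). Just outside lay circles of Pdzd2 (502 bases, with 101, 88, 48 and 61 reads), Grip1 and Tdrd7 (both 503 bases). Among circles with at least 100 reads the shortest came from Auts2 (213 bases), Sntb2 (214 bases), Uhrf2 and Zfp827 (both 234 bases) and Med13l (238 bases). The circle of Sntb2, a syntrophin, had 82, 88, 32 and 51 reads.

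A ring of a single exon whose length is a multiple of 3 keeps its reading frame from round to round. Of the 905 spans 329 (36.4%) were multiples of 3, against 34.3% of the exonic circRNAs of 500 to under 1000 bases and 33.3% of those of 1000 bases or more. Among intronic and intergenic circRNAs under 500 bases the share was 27.2% of 151. The differences are small, and no test was made.

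The circles came from 819 hosts, of which 749 gave 1 short circle, 60 gave 2 and 10 gave 3 or more. Of the members, 887 lay in protein-coding genes, 7 in long non-coding RNA genes and 2 in Rpph1 (the RNA of ribonuclease P). For 9 no gene type was assigned, among them 2 circles with 2 hosts and 6 circles of a host identifier that matched no name. In 166 hosts no longer exonic circRNA was listed. In the other 653 hosts the short circles held a median of 12.7% of the host's exonic junction reads, and more than the longer circles in 136 of them. A start or an end was shared with a longer exonic circRNA by 514 members (56.8%), and 545 (60.2%) lay wholly inside a longer exonic circRNA.

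The host with most members was the unmatched identifier 100861531 on chromosome 17, with 6 circles and 29 reads in all, beside 6153 to 59492 non-junction reads at their splice positions. Eml3, a microtubule-associated protein gene, gave 4 circles from 2 starts and 2 ends, which made up all of its exonic circular reads (56). Of the 3 short circles of Bbs9, the circle of 416 bases had 5692 reads. The 2 others, of 435 and 153 bases, had 25 and 2. The 3 short circles of Ccar1, a transcription coactivator, had 423, 102 and 3 reads and held 39.1% of that host's exonic circular reads.

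The deposited junction ratio is the fraction of reads at a circle's splice positions that the circle accounts for. It was compared over circles with at least 20 junction reads in every library, 66 short and 1958 longer. The median was 0.737, 0.740, 0.747 and 0.750 for short circles, against 0.620, 0.631, 0.624 and 0.623 for longer circles. The short circles were higher by 0.109 to 0.127 in 4 of 4 libraries (exact sign-flip p = 0.13, the smallest possible). The exonic circles just above the limit had ratios near those of the short circles. Their medians were 0.739, 0.733, 0.722 and 0.667 over 27 circles of 500 to under 600 bases, and 0.744, 0.767, 0.737 and 0.698 over 103 circles of 600 to under 1000 bases. The higher ratio was therefore not particular to spans under 500 bases. Linear RNA had been removed from these libraries, so that the ratio is not the one in the tissue.

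Members differed widely in this ratio. The mean over the 4 libraries ran from 0.0365 to 0.969, with quartiles of 0.576 and 0.853, and it exceeded 0.5 in 52 of the 66. The highest belonged to the circle of Ep300, a histone acetyltransferase gene, at chromosome 15:81628293-81628737, with 141, 128, 74 and 57 junction reads beside 11, 12, 5 and 1 non-junction reads. The circles of Ptchd4 (0.961), Eif3c (0.947), Ttll3 (0.946) and Pvt1 (0.945), a long non-coding RNA, followed. The lowest belonged to Pmel, which encodes the fibril protein of pigment granules, with 35, 49, 30 and 46 junction reads beside 3253, 2938, 1523 and 1592 non-junction reads. The circles of Rere (0.230), a transcriptional corepressor, Dact3 (0.244) and Zfp827 (0.253) came next.

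Across conditions the ratio of a typical member moved little. Taken member by member, the deletion minus wild type had a median of 0.0127 at P12, with 39 of 66 higher, and of -0.00271 at P13, with 33 of 66 higher. P13 minus P12 had a median of -2.51e-05 for wild-type libraries and of -0.0114 for deletion libraries.

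The caller also counts alignment types at each circle, that is distinct patterns of clipping rather than reads, and 1 kind is clipped at both ends. Such types made up 1.22%, 1.17%, 1.59% and 1.43% of alignment types at short circles, against 6.50%, 6.53%, 6.94% and 6.91% at longer exonic circles (exact sign-flip p = 0.13, the smallest possible). The share rose with span from bin to bin above 300 bases, with a small step down beyond 600 bases. Among members with at least 100 reads the median share was 0.568%. The highest values were at circles of Ints8 (22.7%), an Integrator subunit, Klc2 (11.2%), a kinesin light chain, and Prkcsh (10.7%), a subunit of a glucosidase of the endoplasmic reticulum.

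**Figure D2:**
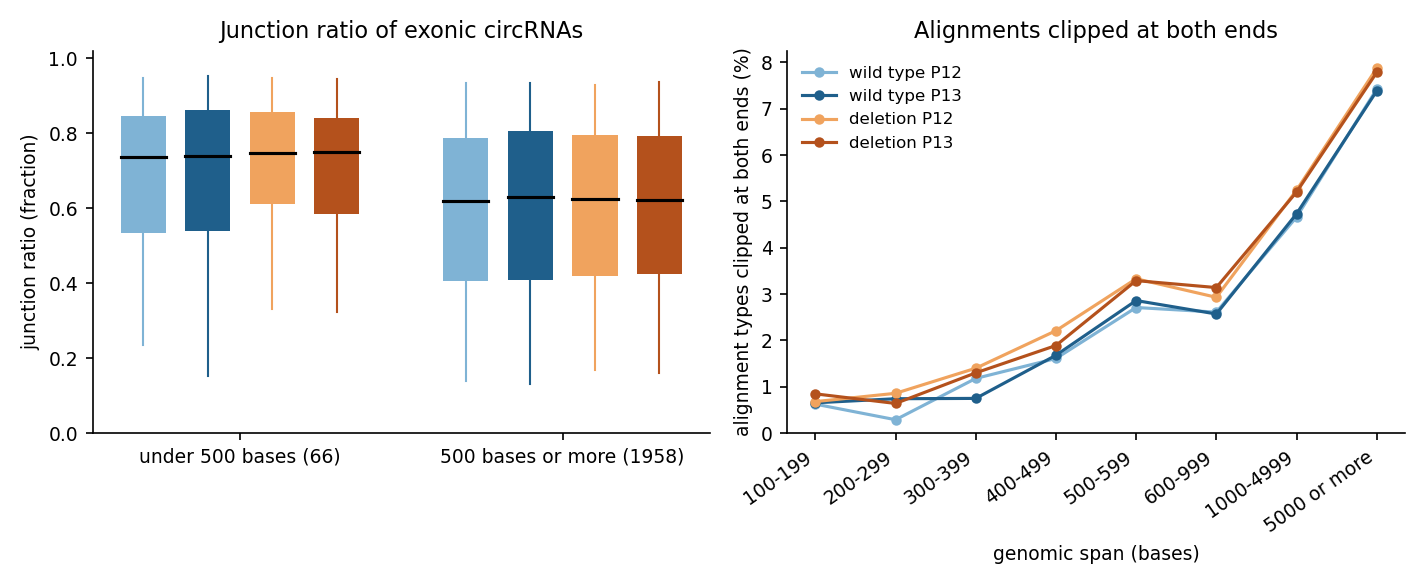
The left panel shows the junction ratio for exonic circRNAs with at least 20 junction reads in every library, 66 under 500 bases and 1958 longer, with boxes from the lower to the upper quartile, a black line at the median and thin lines from the 5th to the 95th percentile. The right panel gives the percentage of alignment types clipped at both ends by genomic span, and all 4 libraries lie below 2.5% in the bins under 500 bases.

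Genotype was tested in all 4 libraries with day in the model, by edgeR's quasi-likelihood test over the 8785 circRNAs of any class that reached 10 reads in 2 or more libraries. Of the 905 short circles, 213 could be tested. Among them 20 rose in the deletion (adjusted p under 0.05), which is 9.39% where 5.03% of all tested circRNAs rose, and 11 fell, which is 5.16% where 3.59% of all fell. Of the 20 risers, 4 came from hosts on the list of chromatin and transcription coregulators, which also held more tested short circles (10) than any other list. At an unadjusted p under 0.05, 34 were higher and 23 lower. The model leaves 1 residual degree of freedom. With 1 library per group, the spread comes from how far the genotype difference varies between P12 and P13, with information shared over circRNAs. The p-values measure only that spread.

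Levels below are scaled junction reads, that is reads per 1000000 after TMM scaling. The Med13l circle had 705, 536, 3025 and 2260. It rose by 2.09 ± 0.13 (SE) on the log2 scale (adjusted p = 3.13e-08, edgeR's quasi-likelihood test). The Bbs9 circle had 2224, 1850, 6743 and 5092 and rose by 1.53 ± 0.11 (adjusted p = 1.58e-07). These were the most abundant of the risers. In both, the lowest deletion library stood above the highest wild-type library, which the choice of called circles favours.

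The circle of Rab3gap2, the non-catalytic subunit of a Rab GTPase-activating complex, spans 379 bases at chromosome 1:185266901-185267279 and had 312, 307, 894 and 753 scaled reads. Its log2 change was 1.41 ± 0.17 (adjusted p = 2.49e-05). The circle of Kdm5c, an X-linked histone demethylase, spans 438 bases and had 114, 95.7, 275 and 368 scaled reads, a change of 1.61 ± 0.24 (adjusted p = 3.01e-04). The circle of Auts2, a neurodevelopmental regulator of transcription, is the shortest of the risers at 213 bases, with 105, 64.8, 321 and 189 scaled reads. That of Cstf3, a factor for the cleavage of messenger RNA ends, had 36.8, 27.8, 190 and 120. In each of these 4 circles the genotypes were separate, which the choice of called circles favours.

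Less abundant risers had wider errors. The circle of Plxnd1, a semaphorin receptor of endothelial cells, had 9, 5, 27 and 19 reads and rose by 2.85 ± 0.52 (adjusted p = 0.00170). The circle of Arid2, a subunit of a chromatin remodelling complex, had 9, 10, 19 and 22 reads and a change of 2.24 ± 0.51 (adjusted p = 0.00825). The circle of Ubl5, a ubiquitin-like protein that takes part in splicing, was unlisted in wild type P12 and had 9, 21 and 18 reads in the others. The circles of Ttyh2, Cabp1 (a neuronal calcium-binding protein) and Dact3 (an inhibitor of Wnt signalling) rose by 1.46, 1.60 and 1.68. The other risers were the circles of Pacsin1 (endocytosis at synapses), Hdac4, Gnptg (tagging of lysosomal enzymes), Thrb (a thyroid hormone receptor), Hirip3, Pvt1, Bicdl1 (a dynein adaptor) and Ckap5 (microtubule assembly), with adjusted p between 0.0270 and 0.0490. Of the 20 risers, 10 had more raw reads in each deletion library than in either wild-type library. The choice of risers from the same reads favours this, and the share over all circRNAs is not given here.

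Among the fallers, the circle of Ptpn21, a cytoplasmic tyrosine phosphatase, spans 361 bases at chromosome 12:98733474-98733834. It had 471, 516, 46 and 49 reads, or 824, 797, 178 and 169 scaled reads, and fell by 2.22 on the log2 scale with an SE of 0.18 (adjusted p = 5.73e-07). The circle of Ip6k2, an inositol hexakisphosphate kinase, spans 333 bases at chromosome 9:108796064-108796396, and its reads went from 309 and 268 in wild type to 18 and 17 in the deletion. It fell by 2.89 (SE 0.24, adjusted p = 5.73e-07). The circle of Kcnn2, a calcium-activated potassium channel of small conductance, had 180, 119, 8 and 7 reads and showed the deepest fall, 3.14 (SE 0.32, adjusted p = 6.22e-06). The wild-type and deletion levels of these 3 circles lay far apart, which their choice by low p-value favours.

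The circle of Ptchd4, a Patched-domain protein, had 557, 500, 232 and 172 scaled reads and fell by 1.40 (SE 0.19). That of Galnt7, an enzyme of mucin-type glycosylation, had 961, 790, 395 and 434 and fell by 1.07 (SE 0.17). The other fallers were the circles of Pias2 (a SUMO ligase), Nhlrc2, Ptprt (a receptor tyrosine phosphatase), Crkl (a signalling adaptor), Fut8 (a fucosyltransferase) and Kbtbd2 (a ubiquitin ligase adaptor), with adjusted p between 0.00339 and 0.0489.

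**Figure D3:**
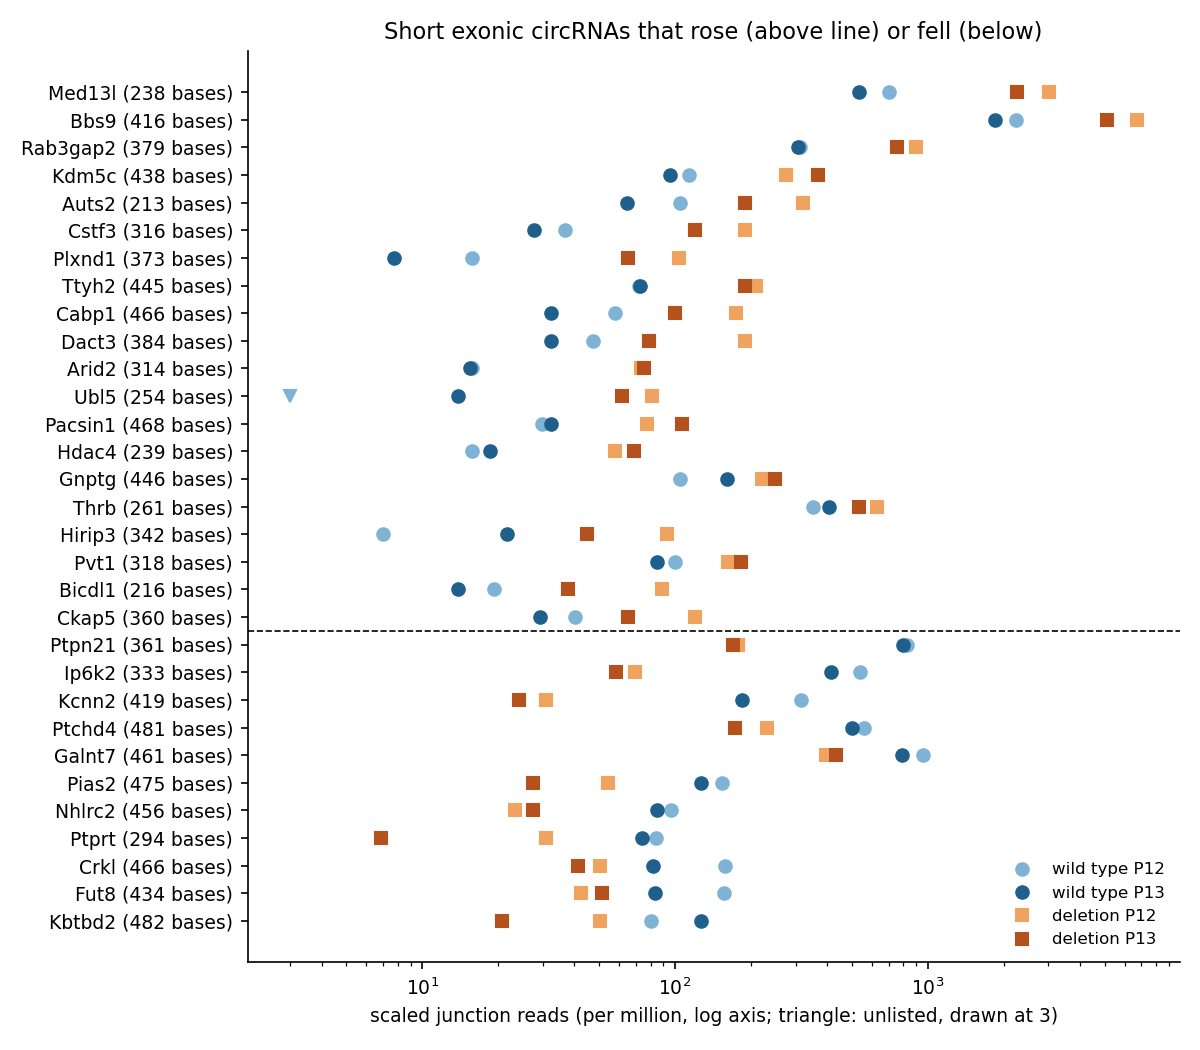
Each line is a short exonic circRNA that rose (above the dashed line) or fell (below it) in the VLDLR deletion, and each point is 1 library's scaled junction reads (per 1000000) on a log axis. The deletion libraries (squares) lie to the right of both wild-type libraries (circles) for all 20 risers and to the left for all 11 fallers, which the choice of called circles fixes.

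How far these calls hold depends on the library and on the scale. DESeq2 called 8 higher and 5 lower, all 13 among the circles above. Of the 31 calls 13 held in each fit that left out 1 library, 14 were lost in at least 1 such fit, and the other 4 could not be tested in every such fit. Without wild type P12 12 rose and 6 fell, without wild type P13 12 and 12, without deletion P12 16 and 19, and without deletion P13 26 and 23. On the authors' SRPBM scale, which lowers the median log2 change of all circRNAs from -0.08 to -1.54, 1 short circle was called higher and 107 lower. There the Med13l circle was the only riser still called, the circles of Rab3gap2, Ttyh2, Gnptg, Thrb, Pvt1 and Ckap5 had negative values, and that of Thrb was called lower. Directions here are therefore relative to the other circRNAs of a library.

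Over all tested members the changes were centred near 0. The median log2 change was 0.07 over the 213 tested members, -0.10 over 7828 longer exonic circles and -0.08 over all, and 53.1% of the members were above 0 against 44.8% of the longer circles. With no overlap between genotypes, 66 members were higher in the deletion and 63 lower, where 24.4% and 30.6% of all tested circRNAs were.

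Within the short circles the median change was lower in the bins of longer span, a description without a test. The 40 tested circles under 300 bases had a median log2 change of 0.41, with 6 called higher and 1 lower. The 83 circles of 300 to under 400 bases had a median of 0.10, with 8 higher and 2 lower. The 90 circles of 400 to under 500 bases had a median of -0.19, with 6 higher and 8 lower. The exonic circles next in span, of 500 to under 600 bases, had a median of -0.21, with 4 higher and 9 lower, and those of 1000 bases or more had -0.09.

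The value for circles under 300 bases leaned on 1 library. Without deletion P12 their median was 0.14, and without deletion P13 it was 0.74. The median ratio of deletion to wild type in this bin was 1.86 at P12 and 1.15 at P13. On the SRPBM scale the median was -1.04, which is 0.49 above that of all circRNAs. The TMM scaling gave the same difference, which a scale of 1 constant per library largely fixes in advance. This pattern and the sequencing run cannot be told apart.

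**Figure D4:**
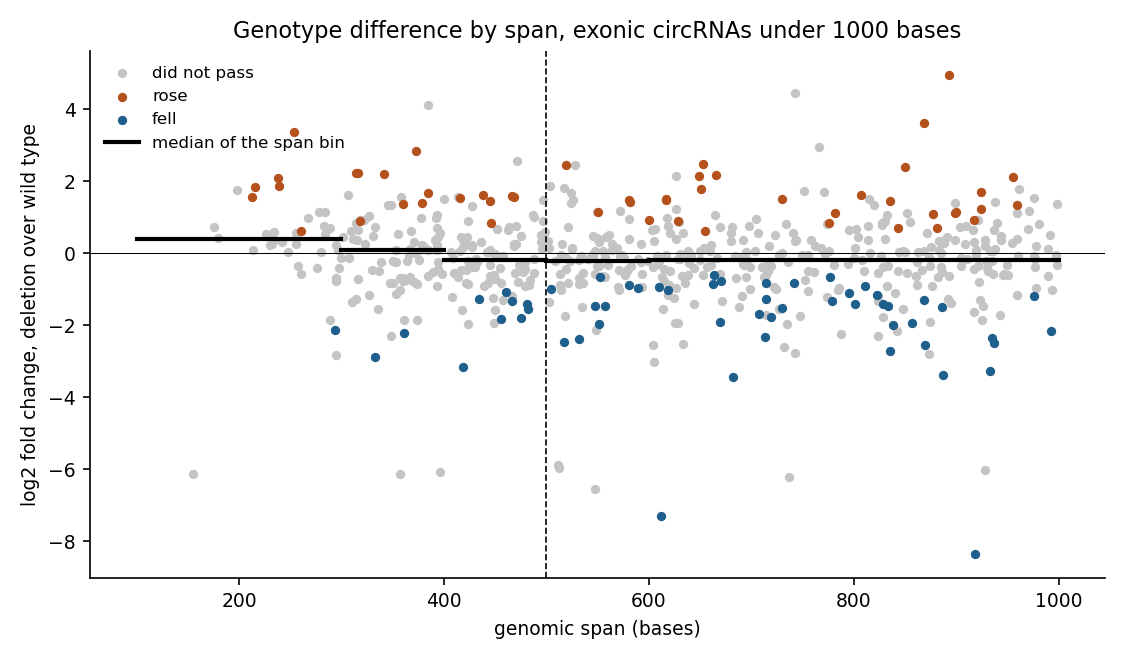
Each point is a tested exonic circRNA under 1000 bases, with its genomic span and its log2 fold change between deletion and wild type (TMM scaling). The black bars, medians per span bin, step down from 0.41 under 300 bases to -0.19 at 400 to under 500 bases, and the dashed line marks 500 bases.

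The called circles also differed in junction ratio, a value that shares its junction reads with the test. The choice of called circles therefore favours a shift in the direction of the call. The shares over all circRNAs are not given here. Over 19 risers with a ratio the median was 0.348, 0.320, 0.704 and 0.731, and 16 of 19 lay above both wild-type libraries. Over the 11 fallers it was 0.864, 0.872, 0.619 and 0.607, and 8 of 11 lay below both. At the Ttyh2 circle there were 514, 615, 97 and 100 non-junction reads, while junction reads were 41, 47, 54 and 55. At the Med13l circle non-junction reads were 228, 154, 95 and 81.

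A circle can change with all circles of its host or apart from them. This was tested for 128 short circles against the other circRNAs of their host, and 4 differed at an adjusted p under 0.05 (edgeR's diffSpliceDGE), where 1.82% of all 6828 tested did. The Bbs9 circle had the lowest p, with a difference of 1.47 on the log2 scale (adjusted p = 1.29e-06). The other exonic circles of Bbs9 had 8354, 11154, 3291 and 3698 reads, a log2 change of -0.32 after scaling. The Ttyh2 circle differed by 1.42 (adjusted p = 0.0337), and the other circles of this gene, which encodes a tweety family membrane protein, had 151, 183, 35 and 26 reads.

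In the other direction, the Nhlrc2 circle, with 55, 55, 6 and 8 reads, differed by -2.12 (adjusted p = 0.0249), while the other circles of that host had a log2 change of 0.45. The circle of Kdm5c did not pass (1.15, adjusted p = 0.110), nor did a circle of Casz1 of 155 bases, a zinc finger gene, with 12 reads in each wild-type library and none listed in the deletion (adjusted p = 0.0812). The circles of Med13l (0.14, adjusted p = 0.871) and Ptpn21 (-0.19, adjusted p = 0.898) did not pass, and the other circles of their hosts had log2 changes of 0.90 and -1.36.

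**Figure D5:**
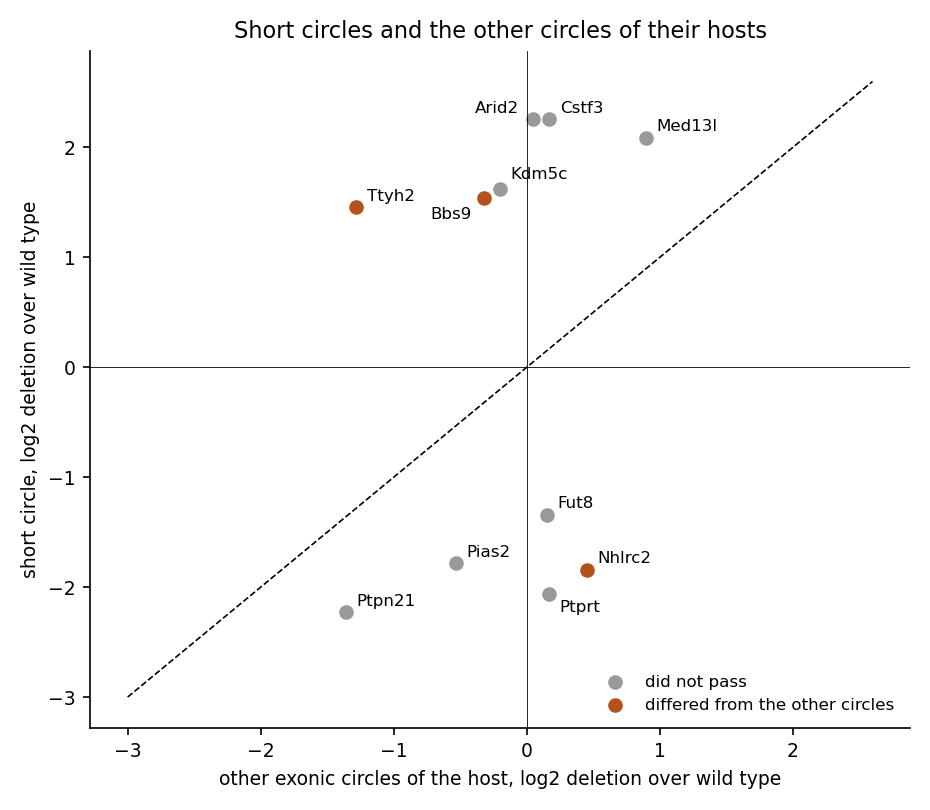
For a part of the short circles called for genotype, the vertical axis gives the circle's log2 change between deletion and wild type. The horizontal axis gives that of the host's other exonic circles together. The circles shown had at least 10 reads of the host's other exonic circles in every library. The called circle of Gnptg, with 13, 19, 29 and 15 such reads, also reached this limit but is not included. The 3 circles shown that differed from the others of their host (orange: Bbs9, Ttyh2 and Nhlrc2) lie far from the dashed line of equal change, and Ptpn21 and Med13l share the sign of their hosts' other circles.

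Hosts were also read by gene lists. Over all tested short circles 9.39% rose and 5.16% fell, and over all tested circRNAs 5.03% and 3.59%. The list of chromatin and transcription coregulators held 42 short circles from 33 hosts, of which 10 were tested and 4 rose (Med13l, Kdm5c, Arid2 and Hdac4) and none fell. The median log2 change was 0.64, against -0.12 over the 342 tested circles of this list at any span. How many of those 342 were called is not given here. DESeq2 called 2 of the 4. On the SRPBM scale 1 of the 10 was higher and 5 were lower. The circle of Hdac4, a class IIa histone deacetylase, had 9, 12, 15 and 20 reads.

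The other lists held at most 7 tested short circles each, too few to set their counts against the shares over all. On the list of widely studied circRNA hosts, 6 of 21 short circles were tested and those of Pvt1 and Bbs9 rose. On the cilium list, 2 of 10 were tested and that of Bbs9 rose. On the endothelial list, 4 of 7 were tested and that of Plxnd1 rose (median 1.01). At an unadjusted p under 0.05 in the same test, 2 circles of the endothelial list were higher and 1 was lower, that of Robo1 (-1.16). On the list of RNA-binding and splicing genes, 4 of 18 were tested and that of Cstf3 rose, although the median was -0.74. No short circle of the photoreceptor list (2 of 6 tested), the synapse list (3 of 19), the ubiquitin list (7 of 23), the lipoprotein receptor and lipid list (3 of 8) or the Wnt and Norrin list (2 of 6) passed in either direction. The same held for the lists of hypoxia and Foxo genes (1 of 5), DNA replication (2 of 5), lens (1 of 4), striated muscle (1 of 3) and pigment cells (1 of 1). The last was the Pmel circle, with a log2 change of 1.00.

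Markers of other cells gave few short circles. The lists for bipolar cells, Müller glia, and microglia and leukocytes gave none. Those for amacrine, horizontal and ganglion cells, for erythroid cells, and for cornea, fibroblasts and pericytes gave 2, 2 and 3, none of which was tested. At any span, circRNAs of photoreceptor hosts held 1.18%, 1.39%, 1.68% and 1.78% of the junction reads. Those of lens hosts held 0.193%, 0.215%, 0.348% and 0.299%, and those of pigment epithelium and melanocyte hosts 0.130%, 0.136%, 0.166% and 0.154%. All 3 shares were higher in both deletion libraries than in both wild-type libraries. The part of cell composition in the genotype differences was not tested.

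Between P13 and P12 no short circle passed the test, where 0.0228% of all circRNAs did (2 of 8785, edgeR's quasi-likelihood test), and DESeq2 also called 0. At an unadjusted p under 0.05, 2 were higher and 13 lower. The median log2 change was -0.13, against 0.01 over all circRNAs. The lowest p belonged to a circle of Rpph1, of 248 bases, with no reads listed at P12 and 28 and 13 at P13 (adjusted p = 0.274). Its splice positions held 4303406 and 4909854 non-junction reads in the P13 libraries. A circle of Rabep1, an endosomal Rab effector, had 0, 45, 3 and 15 reads (adjusted p = 0.598). When 5 reads in 2 libraries sufficed for testing, both passed (adjusted p = 0.00306 each). Among circles that were lower at P13, that of Rps6kc1 had 62, 17, 14 and 6 reads and that of Zfp827 103, 49, 49 and 37, and neither passed.

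Pairs of single libraries were compared by the ratio of scaled reads, with an exact interval for counting error and no p-value. A circle was called at a ratio of at least 2 or at most 0.5 when the interval excluded 1. At P12, 41 short circles were higher in the deletion and 29 lower of 188, or 21.8% and 15.4%, where 10.9% and 10.6% of all circRNAs were. At P13, 26 were higher and 15 lower of 185, or 14.1% and 8.11%, where 10.3% and 9.58% of all were. Of 163 circles tested at both days, 17 (10.4%) were higher at both and 7 (4.29%) lower at both, where 4.81% and 3.85% of the 6470 circRNAs so tested were. In opposite directions 0 short circles were called, and 0.247% of all.

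The Plxnd1 circle had a ratio of 6.63 (interval 3.03 to 16) at P12 and 8.47 (3.06 to 29.0) at P13. That of Ip6k2 had 0.129 (0.0753 to 0.207) and 0.141 (0.0811 to 0.231). For both circles the intervals at P12 and P13 overlapped, and the choice of circles by the genotype test favours similar ratios at both days. The circle of Hirip3, a partner of a histone chaperone, had a ratio of 13.3 (4.56 to 52.6) at P12 with 4 and 24 reads. Circles of Cse1l, a nuclear export receptor, and Zfp609 were lower at P12, with 33 and 35 reads in wild type against 0 and 2. At P13 they had 20 and 24 reads in wild type and 16 each in the deletion, and neither was called lower.

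In wild type 5 short circles were higher at P13 and 16 lower of 217, or 2.30% and 7.37%, where 4.48% and 4.62% of all were. In the deletion 1 was higher and 17 lower of 149, or 0.671% and 11.4%, where 4.0% and 4.19% of all were. The median ratio of P13 to P12 was 0.882 for wild type and 0.889 for the deletion, against 1.01 over all circRNAs in either genotype. No circle was called in the same direction in both genotypes among the 134 tested in both. With so few calls in each genotype, this count cannot show whether day differences repeat, and the share over all circRNAs is not given here. In the deletion the circle of Brca2, a DNA repair gene, was the only one higher, with 11 and 32 reads, and that of Fgfr1, a growth factor receptor, had 17 and 6. In wild type the circle of Gucy1a2, a guanylate cyclase subunit, had 27 reads at P12 and was unlisted at P13, and that of Tulp1, a photoreceptor protein, had 19 and 6.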

How the data were processed

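The authors deposited for each library counts of back-spliced junction reads and of non-junction reads per circRNA, which per the file headers follow the layout of the caller CIRI. The junction ratio the authors deposited is a fraction, 2 times the junction reads over that number plus the non-junction count. The deposited SRPBM signal multiplies the junction reads by 1 constant per library, and its origin is not stated. The submitters' processing notes name BWA and DESeq2, without a role. The sources used here do not give the genome build or the annotation, and coordinates follow the deposited tables. Host identifiers were matched to names in a RefSeq gene table (901 of 907 for the hosts of short circles).

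Each table lists circRNAs from 2 junction reads, and an unlisted circRNA entered as 0. Junction counts were TMM-scaled and tested with edgeR 4.0.16 (robust quasi-likelihood fit, genotype and day additive, at least 10 reads in at least 2 libraries, 8785 circRNAs, Benjamini-Hochberg adjustment over all of them, threshold 0.05). The SE is the absolute log2 change divided by the square root of the F statistic. Circles were compared with the others of their host by diffSpliceDGE. DESeq2 1.42.0 was an alternative. Ratios of single libraries needed 20 reads in the pair and used Clopper-Pearson 95% intervals with a floor of 3 reads. The number of reads limits precision, from 299723 junction reads in the shallowest library to 759063 in the deepest. On data simulated for the genotype test, with 2-fold and 4-fold changes in 200 circRNAs each, 26% and 86% were recovered (7574 and 7556 circRNAs tested). The changed circRNAs were drawn from those with a mean of at least 20 reads per library, so that recovery below that level is not covered.

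Named circles were the lowest p-values per comparison (up to 12 in each direction for genotype), the most abundant, the shortest with at least 100 reads, those beside the span limit, the most extreme called ratios, the hosts with most members, called members of gene lists and the highest shares of alignments clipped at both ends. Circles named for their junction ratio, or for being listed in a single genotype, were chosen after their values were seen. The members and lists were chosen with earlier results of these data known. Of the circles that differed from the others of their host, 1 is not reported here.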

Additional observations from a re-analysis of the deposited data

How the results depend on the processing

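Of the 31 circles called for genotype, 31 kept direction and call with DESeq2 size factors in edgeR, 30 with total junction reads as the scale, 27 with 5 reads in 2 libraries, 24 with no filter and 22 with genotype alone in the model. On the SRPBM scale 12 did, 13 lost the call and 6 had the other sign, namely Rab3gap2 (-0.05), Ttyh2 (-0.00147), Gnptg (-0.63), Thrb (-0.85), Pvt1 (-0.55) and Ckap5 (-0.07). That scale shifts every circRNA of a library by 1 constant. The counts that rose and fell were 20 and 11. They were 6 and 1 with a span limit of 300 bases, 51 and 56 with a limit of 1000, 8 and 5 by DESeq2 and 1 and 107 on the SRPBM scale, and 18 fell with 5 reads in 2 libraries. With each library left out in turn, 12 to 26 rose and 6 to 23 fell. For day, none rose or fell, but 2 rose with 5 reads in 2 libraries and with no filter, 1 fell with a limit of 1000 bases, and 0 to 1 rose with 1 library left out (1 without deletion P12). The cause was not tested.

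For ratios of single libraries, a minimum of 50 reads left 13 higher at P12 and 13 higher at P13 for genotype, 1 higher and 6 lower for day in wild type, and 0 higher and 2 lower for day in the deletion. A 3-fold limit left 23 higher and 15 lower at P12, 11 higher at P13, 7 lower for day in wild type, and 0 higher and 4 lower for day in the deletion. On the SRPBM scale 4 were higher and 111 lower at P12, and 1 higher and 127 lower at P13. No paired analysis was possible because each group held 1 library and the labels give no replicate numbers. With 1 library per group, leaving a library out leaves 1 in a genotype, which is then assumed to vary like the other genotype. Depth leaves 692 of the 905 circles untested.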
